A study of Homo sapiens with 32 samples.

Results

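The RNA of 10 genes that control the G1 phase of the cell cycle was followed in RH4 cells. RH4 is an established cell line from a human alveolar rhabdomyosarcoma. The genes were the D-type cyclins CCND1, CCND2 and CCND3, the E-type cyclins CCNE1 and CCNE2, the kinases CDK4 and CDK6, and the inhibitors CDKN1A, CDKN1B and CDKN1C. They were chosen by gene symbol, with earlier results of these data known, as were the lists of other genes used below. The shares over all genes set beside their counts are therefore descriptions and not independent comparisons. All 10 genes were found among the 18980 coding genes of every library. Of these, 9 passed the filter on low counts and were tested with 13260 genes in all. Treatment lasted 2 h or 6 h, with A485, dCBP, IHK-44 or JQAD at a dose of 100 nM or of 1000 nM. Controls of each time were DMSO, a solvent, and NT, an abbreviation that is not explained in the labels. The series describes its agents as inhibitors or degraders of CBP and p300, and its labels do not say which agent is which. All 20 libraries came from this 1 cell line, and every condition had 1 library. A test at one time therefore set the 2 doses of a compound against DMSO and NT as if each were a pair of replicates. Its p-values measure the spread between such libraries, which the labels do not say came from separate cultures.

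The libraries held 13466631 to 16799327 counts in coding genes. The myogenic markers MYOD1, MYOG, DES and FGFR4 stood at 508 to 677, 264 to 300, 392 to 439 and 757 to 812 CPM (counts scaled to the same library total over coding genes) in the 4 DMSO and NT libraries. PTPRC, a blood marker, reached at most 0.0601 CPM in any library, EPCAM, an epithelial marker, was at 0 in all, and PECAM1, an endothelial marker, reached at most 0.708. In the 6 h libraries all 4 myogenic markers fell with dCBP and with IHK-44 (edgeR quasi-likelihood test, Benjamini-Hochberg adjusted), MYOD1 with a log2 change of -2.64 for dCBP (SE 0.62, adjusted p = 0.00256) and -2.31 for IHK-44 (SE 0.61, adjusted p = 0.00611). These falls were in the same groups of libraries as the changes of the cyclins given below, and their part in those changes was not tested. In bulk RNA, fewer cells that express a gene and less RNA per cell cannot be told apart.

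Cells leave G1 when cyclin-dependent kinases phosphorylate the retinoblastoma protein and so release E2F transcription factors. D-type cyclins bind CDK4 and CDK6 and start this step in response to growth signals, and E-type cyclins bind CDK2 and complete it. The CIP/KIP proteins p21 (CDKN1A), p27 (CDKN1B) and p57 (CDKN1C) bind cyclin-CDK complexes and hold CDK2 in check. The amount of p27 protein is set largely by ubiquitin-dependent turnover, which RNA-seq does not measure. CBP and p300 are acetyltransferases that act as coactivators at enhancers and promoters. In skeletal muscle precursors, leaving the cell cycle accompanies differentiation, and CDKN1A and CDKN1C are known for their part in it.

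The series' title concerns CpG islands, so the DNA around the start sites is shown first. RefSeq windows of 300 bases around a start site, most of them upstream of it (GRCh38.p14), were matched for 6 of the 10 genes, namely CCND3, CCNE1, CDK4, CDK6, CDKN1A and CDKN1B. The 4 windows printed belong to a kinase and an inhibitor whose RNA fell at 6 h with dCBP and IHK-44 (CDK6 and CDKN1A) and to the kinase and the inhibitor that did not pass as lower then (CDK4 and CDKN1B). They lie at chr6:36678464-36678763 on the plus strand, chr7:92836524-92836823 on the minus strand, chr12:57752261-57752560 on the minus strand and chr12:12717118-12717417 on the plus strand. Each runs 5′ to 3′ on the gene's strand, and capitals mark CG dinucleotides.
CDKN1A: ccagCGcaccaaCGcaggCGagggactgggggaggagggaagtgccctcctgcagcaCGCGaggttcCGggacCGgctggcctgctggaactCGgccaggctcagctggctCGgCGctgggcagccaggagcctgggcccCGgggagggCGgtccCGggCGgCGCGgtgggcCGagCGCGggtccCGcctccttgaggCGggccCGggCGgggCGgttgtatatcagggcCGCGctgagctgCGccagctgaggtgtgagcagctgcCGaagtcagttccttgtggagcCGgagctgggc
CDK6: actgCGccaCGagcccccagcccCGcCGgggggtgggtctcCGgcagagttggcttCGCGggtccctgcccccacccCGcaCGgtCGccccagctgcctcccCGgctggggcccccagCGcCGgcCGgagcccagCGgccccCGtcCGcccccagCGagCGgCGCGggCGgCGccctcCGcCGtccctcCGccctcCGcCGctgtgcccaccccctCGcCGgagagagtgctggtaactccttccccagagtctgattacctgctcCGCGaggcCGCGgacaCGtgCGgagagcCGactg
CDK4: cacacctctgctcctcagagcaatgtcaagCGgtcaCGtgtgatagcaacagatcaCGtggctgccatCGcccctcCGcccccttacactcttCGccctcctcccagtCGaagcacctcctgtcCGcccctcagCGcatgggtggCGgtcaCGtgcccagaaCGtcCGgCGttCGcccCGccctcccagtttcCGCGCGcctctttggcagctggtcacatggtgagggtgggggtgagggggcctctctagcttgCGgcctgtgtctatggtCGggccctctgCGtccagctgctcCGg
CDKN1B: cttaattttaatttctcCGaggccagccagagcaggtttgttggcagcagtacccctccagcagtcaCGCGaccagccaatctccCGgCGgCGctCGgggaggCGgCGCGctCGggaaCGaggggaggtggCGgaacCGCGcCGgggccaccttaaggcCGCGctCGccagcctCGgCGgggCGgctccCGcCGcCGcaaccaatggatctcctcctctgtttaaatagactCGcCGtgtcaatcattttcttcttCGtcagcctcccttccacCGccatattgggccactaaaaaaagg

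All 4 windows held more CG dinucleotides than the median of 14 over 35116 RefSeq windows of the same length. There were 29 in that of CDKN1A, 37 in that of CDK6, 23 in that of CDK4 and 29 in that of CDKN1B. Of all windows, 75.8% held fewer than those of CDKN1A and CDKN1B, 88.7% fewer than that of CDK6 and 64.2% fewer than that of CDK4. A second CDK6 start site had 29. CCNE1 had 47, and the 3 start sites of CCND3 had 37, 29 and 3. The SP1-type word GGGCGG was searched on both strands and is held by 45% of all windows. It occurred 4 times in the CDKN1A window, 3 times each in the printed CDK6 window and that of CDK4, 7 times in that of CCNE1 and 1 time in that of CDKN1B. The second CDK6 window held it 0 times, and the 3 CCND3 windows, in the order above, 4, 5 and 0 times. The TATA word TATAAA, held by 11.5% of all windows, and the palindromic CREB-type word TGACGTCA, held by 1.85%, were in no window of the 6 genes. None held the E2F-type words TTTCCCGC, TTTCGCGC, TTTGCCGC or TTTGGCGC, each found in 0.515% to 1.63% of all windows. These counts describe letters in a window and not binding.

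In the DMSO and NT libraries the genes spanned a wide range per length, given here in TPM (transcript abundance scaled by length and library) as lowest to highest of the 4 libraries. CCND2 was highest at 263.8 to 289.5 TPM, followed by CDK6 at 205.6 to 249.4 and CDK4 at 188.2 to 231.1, and these last 2 ranges overlapped. CCND3 followed at 66.8 to 75.0 and CCNE1 at 47.8 to 57.6. CDKN1A, at 22.2 to 44.5, overlapped CDKN1B, at 27.3 to 32.6. CCND1 stood at 20.8 to 23.0 and CCNE2 at 11.5 to 14.0, with no overlap between the neighbours in this order from CDKN1B down. CDKN1C was nearly silent at 0.13 to 0.19 TPM. Its expected counts lay between 1 and 5 per library over all 20 libraries, so a fall or a small change in p57 RNA could not have been detected at this depth. The main D-type cyclin RNA of these cells was that of cyclin D2, with 74.7% to 76.1% of D-type TPM in the controls, while cyclin D1 RNA made up 5.63% to 5.94%.

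**Figure D1:**
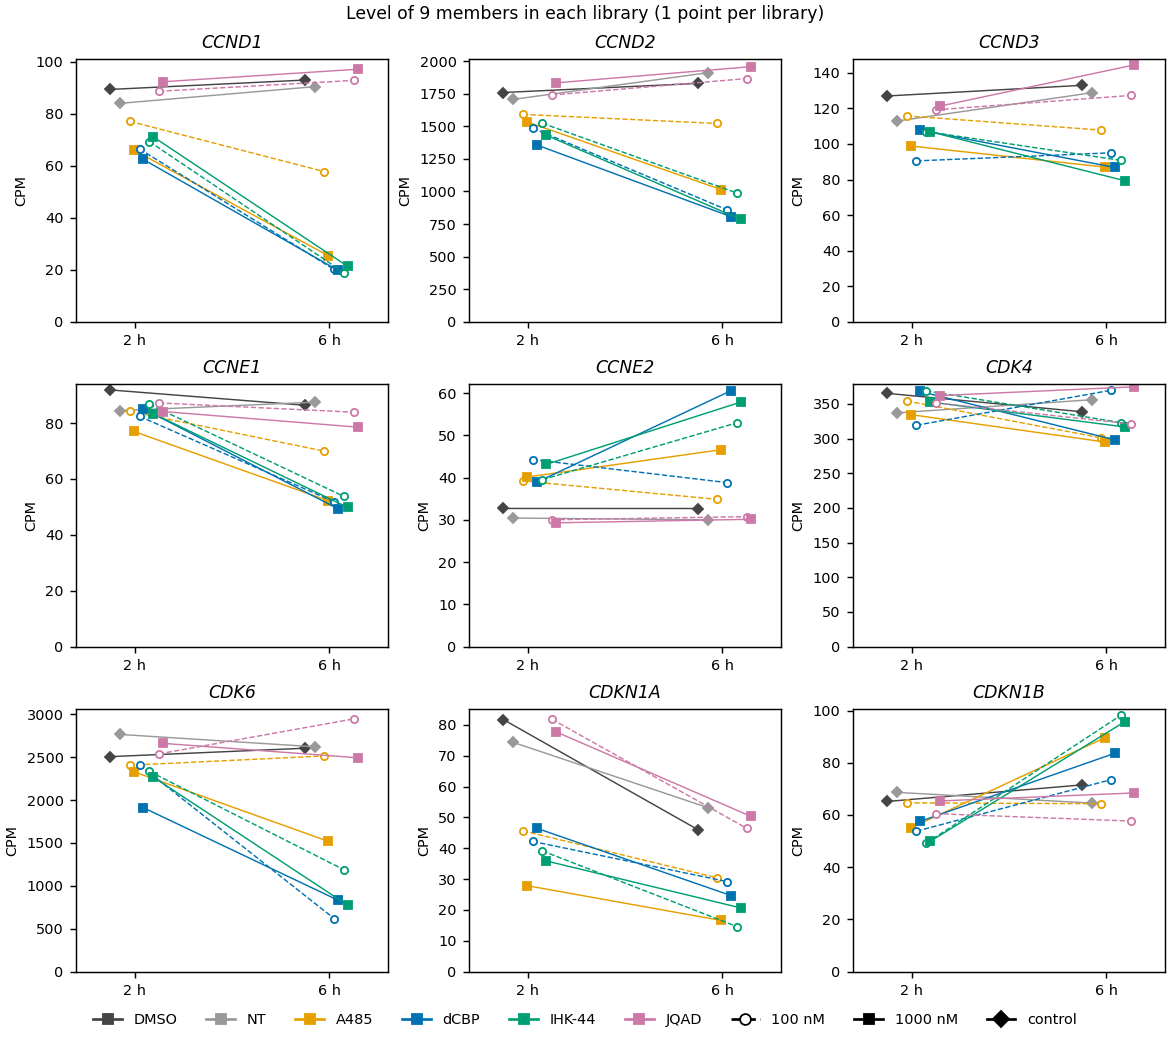
Level of the 9 tested genes in each of the 20 libraries, in CPM from 0, at 2 h and 6 h; each point is 1 library, colours are treatments, open circles 100 nM and filled squares 1000 nM, and lines join the same treatment at both times. CCND1 at 6 h stood at 18.9 to 21.3 CPM in the 4 dCBP and IHK-44 libraries against 90.5 to 93.0 in DMSO and NT.

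Counted at each time against DMSO and NT, more of the genes passed at 6 h than at 2 h with dCBP and with IHK-44 on the count scale. With dCBP, 1 of the 9 genes fell at 2 h and 6 fell and 1 rose at 6 h. Over all 13260 genes, 2.67% fell at 2 h, and at 6 h 22.4% fell and 23.2% rose. With IHK-44, 2 fell at 2 h, where 2.45% of all genes did, and 6 fell and 2 rose at 6 h, where 21.4% of all genes fell and 20.7% rose. With A485, none passed at 2 h, where 0.0452% of all genes passed, and 5 fell at 6 h, where 8.7% of all genes did. On log2(TPM + 1), a scale added after seeing the data (limma), 8 of the 9 genes were lower with dCBP at 2 h and 7 with IHK-44, where 23% and 23.2% of all genes were lower and the median of all genes shifted by -0.34 and -0.37. The median fitted log2 change of the 9 genes at 6 h was -0.94 for dCBP, -0.92 for IHK-44 and -0.51 for A485, beside 0.07, 0.06 and 0.02 over all genes tested. With JQAD none of the 9 passed at either time, where 0% of all genes passed by the edgeR test. None of the 9 had an unadjusted p under 0.05 with JQAD, where 138 of all 13260 genes did at 2 h and 284 at 6 h.

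Cyclin D1 RNA had the largest fitted fall among the cyclins. CCND1 stood at 89.4 CPM in DMSO and 84.1 in NT at 2 h, and at 93.0 and 90.5 at 6 h. With dCBP it was 66.5 CPM at 100 nM and 62.5 at 1000 nM at 2 h, and 20.1 and 19.8 at 6 h. With IHK-44 it was 69.4 and 71.2 CPM at 2 h, and 18.9 and 21.3 at 6 h. All 4 dCBP and IHK-44 libraries of 6 h lay far below every control, and their 2 h libraries lay below the controls of 2 h by a smaller margin. The fitted log2 change at 6 h was -2.36 with dCBP (SE 0.25, adjusted p = 7.79e-06) and -2.36 with IHK-44 (SE 0.25, adjusted p = 5.01e-06), that is, 19.5% of the control level with either. At 2 h the changes of -0.48 (SE 0.23, adjusted p = 0.234) and -0.35 (SE 0.23, adjusted p = 0.464) did not pass.

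Cyclin D2, the most abundant of the family, had a smaller fitted fall in the same libraries. CCND2 stood at 1760 CPM in DMSO and 1707 in NT at 2 h, and at 1830 and 1912 at 6 h. Under dCBP CCND2 was at 1486 CPM at 100 nM and 1358 at 1000 nM at 2 h, and 858.7 and 806.3 at 6 h. Under IHK-44 CCND2 was at 1524 and 1432 CPM at 2 h, and 988.1 and 785.6 at 6 h. The 6 h libraries of both compounds held under 1000 CPM, and no control of that time fell below 1830. At 6 h the log2 change was -1.32 with dCBP (SE 0.16, adjusted p = 1.31e-05) and -1.24 with IHK-44 (SE 0.16, adjusted p = 1.8e-05). Reads of the overlapping antisense gene CCND2-AS1 may be among these, since whether the counting used strand is not given in the sources used here.

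Cyclin D3 had the smallest fitted change of the D-type cyclins at 6 h. CCND3 stood at 127.0 CPM in DMSO and 112.9 in NT at 2 h, and at 133.0 and 128.8 at 6 h. Under dCBP CCND3 was at 90.5 CPM at 100 nM and 107.8 at 1000 nM at 2 h, and 95.02 and 86.8 at 6 h. Under IHK-44 CCND3 was at 107.0 and 106.9 CPM at 2 h, and 90.8 and 79.3 at 6 h. At 6 h the libraries of both compounds lay below both controls, with a fitted log2 change of -0.68 for dCBP (SE 0.14, adjusted p = 0.000865) and -0.79 for IHK-44 (SE 0.14, adjusted p = 0.00028). The makeup of D-type cyclin RNA shifted with these unequal falls. CCND3 made up 18.4% to 19.4% of D-type TPM in the 6 h controls and 24.2% to 27.6% with dCBP and IHK-44, while CCND1 went from 5.63% to 5.94% to 2.2% to 3.02%. CCND2 still made up 69.8% to 73.6% there.

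The E-type cyclins moved in opposite directions. CCNE1 stood at 91.8 CPM in DMSO and 84.4 in NT at 2 h, and at 86.4 and 87.5 at 6 h. Under dCBP CCNE1 was at 82.4 CPM at 100 nM and 85.1 at 1000 nM at 2 h, and 51.8 and 49.3 at 6 h. Under IHK-44 CCNE1 was at 86.7 and 83.4 CPM at 2 h, and 53.8 and 49.8 at 6 h. The 2 h values overlapped the controls and the 6 h values did not. CCNE1 fell at 6 h, with a log2 change of -0.94 for dCBP (SE 0.13, adjusted p = 3.38e-05) and -0.92 for IHK-44 (SE 0.13, adjusted p = 3.84e-05).

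CCNE2, the other E-type cyclin, stood at 32.7 CPM in DMSO and 30.4 in NT at 2 h, and at 32.7 and 30.0 at 6 h. With dCBP it was 44.3 CPM at 100 nM and 38.9 at 1000 nM at 2 h, and 38.8 and 60.6 at 6 h. With IHK-44 it was 39.5 and 43.1 CPM at 2 h, and 53 and 57.9 at 6 h. Every dCBP and IHK-44 library lay above every control of its time. CCNE2 rose at 6 h by 0.65 on the log2 scale with IHK-44 (SE 0.15, adjusted p = 0.00243) and by 0.50 with dCBP (SE 0.15, adjusted p = 0.0127). The dCBP call was lost without the 6 h library at 1000 nM (0.18, adjusted p = 0.269) and without NT at 6 h (0.45, adjusted p = 0.0965). As a share of the TPM of CCNE1 and CCNE2 together, CCNE2 went from 19.0% to 20.4% in the 6 h controls to 33.7% to 45.7% with dCBP and 40% to 44.6% with IHK-44. The coding genes INTS8 and NDUFAF6 overlap CCNE2, and reads of the overlap may be split between them.

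The CCNE2 calls depended on the scale. The coding genes held 39.3% to 44.5% of all TPM in the controls, 27.9% to 35.4% with dCBP, 31.2% to 34.6% with IHK-44 and 43% to 53.9% with A485. On log2(TPM + 1) the median of all genes shifted at 6 h by -0.19 for dCBP and for IHK-44 and by 0.35 for A485, and the test there (limma) gave CCNE2 0.15 with dCBP (adjusted p = 0.705) and 0.33 with IHK-44 (adjusted p = 0.36). At 2 h, where the median shifted by -0.34 and -0.37, the CCNE2 value, which passed on neither scale, turned from 0.35 to -0.06 with dCBP and from 0.34 to -0.09 with IHK-44. The falls of CCND1, CCND2, CCND3, CCNE1, CDK6 and CDKN1A at 6 h with dCBP and IHK-44 passed on both scales, under both other count normalizations, with DESeq2 and in each of 20 fits that left out 1 library.

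Of the G1 kinases, CDK6 fell at 6 h with both compounds and CDK4 did not pass on the count scale. CDK6, which with CDK4 forms the kinase partners of D-type cyclins, stood at 2507 CPM in DMSO and 2766 in NT at 2 h, and at 2605 and 2622 at 6 h. With dCBP it was 2409 CPM at 100 nM and 1911 at 1000 nM at 2 h, and 618.3 and 832.2 at 6 h. With IHK-44 it was 2336 and 2270 CPM at 2 h, and 1188 and 773.6 at 6 h. Those 4 libraries of 6 h held the lowest CDK6 values of all 20. CDK6 fell at 6 h, with a log2 change of -2.01 for dCBP (SE 0.22, adjusted p = 8.76e-06) and -1.58 for IHK-44 (SE 0.22, adjusted p = 4.18e-05), to 24.8% and 33.5% of the control level. The antisense gene CDK6-AS1 overlaps it.

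CDK4 stood at 337.1 to 365.2 CPM in the 4 DMSO and NT libraries. With dCBP it was 319.2 CPM at 100 nM and 367.9 at 1000 nM at 2 h, and 369.7 and 298.1 at 6 h, and with IHK-44 368.9 and 352.8 at 2 h, and 323.0 and 316.8 at 6 h. Its values overlapped the controls except with IHK-44 and A485 at 6 h, where they lay below. The fitted log2 change at 6 h was -0.21 with dCBP (SE 0.12, 95% interval -0.46 to 0.03, adjusted p = 0.147) and -0.29 with IHK-44 (SE 0.12, 95% interval -0.53 to -0.04, adjusted p = 0.0559), and neither passed. On the TPM scale, which moved the median of all genes down by 0.19 in both, CDK4 did pass as lower with each. CDK4 shares its locus with the coding gene TSPAN31, and reads of the overlap may be split between them. In the controls CDK6 made up 49.4% to 53.9% of the TPM of CDK4 and CDK6, and at 6 h it made up 19.3% to 28.5% with dCBP and 25.8% to 34.4% with IHK-44.

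**Figure D2:**
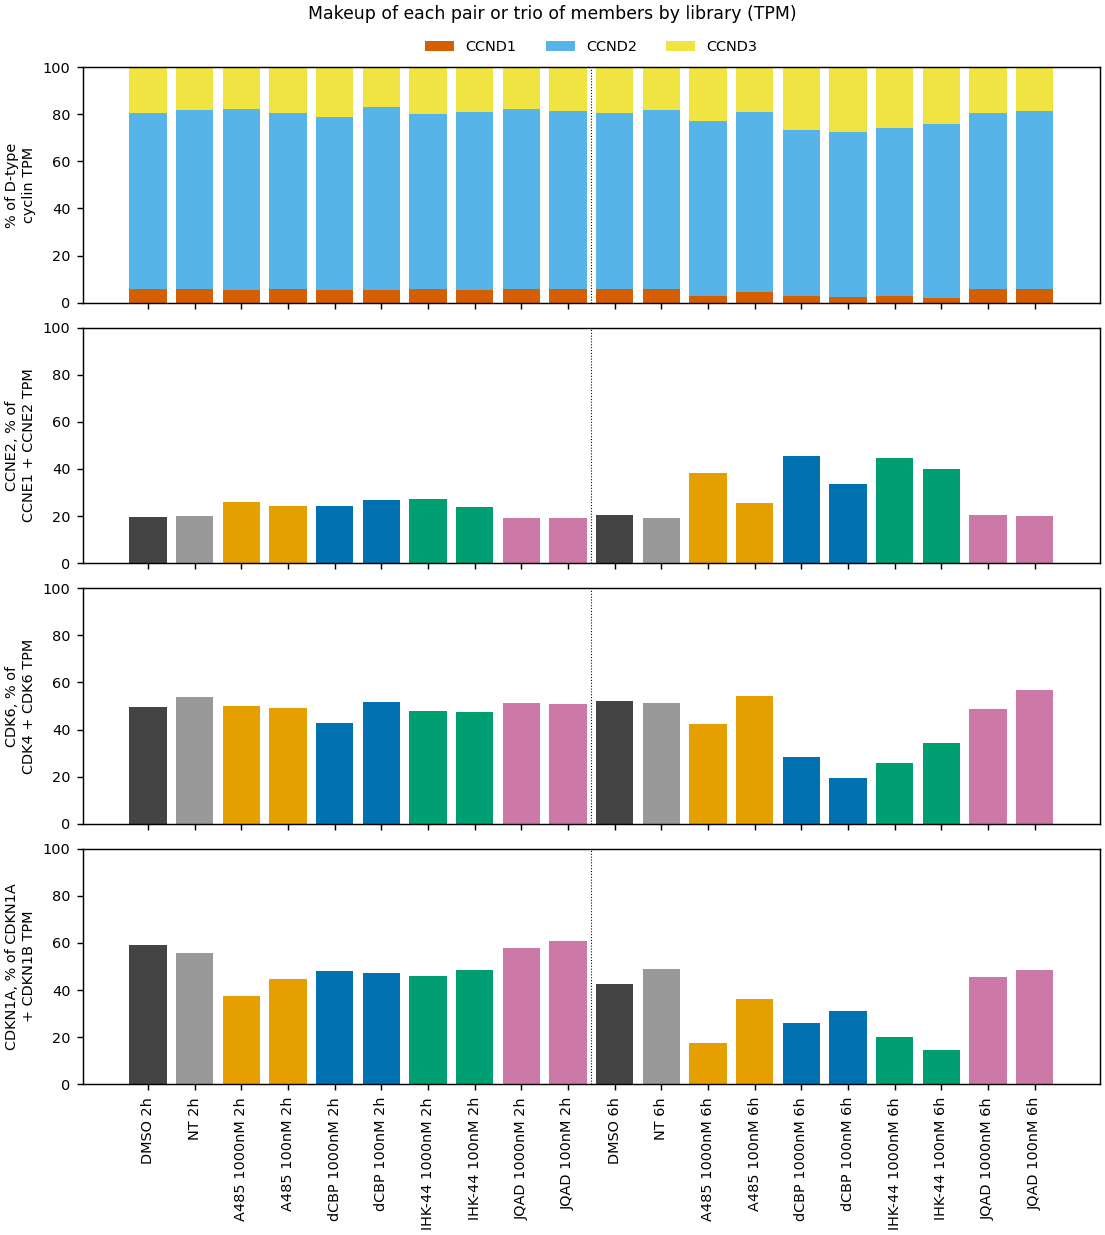
Makeup of D-type cyclin, E-type cyclin, CDK4/CDK6 and CDKN1A/CDKN1B RNA in each of the 20 libraries, as percent of the summed TPM of the genes named on each axis, with 2 h left and 6 h right of the dotted line. At 6 h the CDK6 bars of dCBP and IHK-44 stand at 19.3% to 34.4%, below the 51.2% to 52.2% of DMSO and NT.

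CDKN1A, which encodes p21, was lower already at 2 h. It stood at 81.7 CPM in DMSO and 74.3 in NT at 2 h, and at 46.0 and 53.2 at 6 h. It was lower at 6 h than at 2 h in all 4 matched pairs of DMSO, NT and both JQAD doses, so each time has its own control level. With dCBP it was 42.2 CPM at 100 nM and 46.5 at 1000 nM at 2 h, and 29.2 and 24.6 at 6 h. With IHK-44 it was 39.1 and 35.9 CPM at 2 h, and 14.6 and 20.6 at 6 h. With A485 it was 45.6 and 27.9 CPM at 2 h, and 30.4 and 16.6 at 6 h. Every library of these 3 compounds lay below both controls of its time, and the range of the JQAD libraries, 77.7 to 81.8 CPM at 2 h and 46.5 to 50.4 at 6 h, overlapped that of the controls.

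The fitted change of CDKN1A at 2 h was -1.10 on the log2 scale with IHK-44 (SE 0.24, adjusted p = 0.0153), -0.86 with dCBP (SE 0.24, adjusted p = 0.0478) and -1.12 with A485 (SE 0.24, adjusted p = 0.0821), so the first 2 passed. The dCBP call at 2 h was lost in 12 of the 20 fits that left out 1 library, among them those without the DMSO (adjusted p = 0.242), NT (adjusted p = 0.123), 1000 nM (adjusted p = 0.208) or 100 nM (adjusted p = 0.17) library of 2 h, and the others gave adjusted p from 0.0529 to 0.0647. The IHK-44 call was lost without the DMSO (adjusted p = 0.0981), NT (adjusted p = 0.0756), 1000 nM (adjusted p = 0.183) or 100 nM (adjusted p = 0.0763) library of 2 h. At 6 h CDKN1A fell, with a log2 change of -1.66 for IHK-44 (SE 0.26, adjusted p = 9.53e-05) and -1.04 for dCBP (SE 0.25, adjusted p = 0.00326). The noncoding gene DINOL overlaps CDKN1A.

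CDKN1B, which encodes p27, moved otherwise. It stood at 65.2 CPM in DMSO and 68.7 in NT at 2 h, and at 71.5 and 64.5 at 6 h. With IHK-44 it was 49.2 CPM at 100 nM and 49.9 at 1000 nM at 2 h, and 98.2 and 95.7 at 6 h. Under dCBP CDKN1B was at 53.8 and 57.6 CPM at 2 h, and 73.5 and 83.7 at 6 h. The libraries of both compounds lay below the controls at 2 h and above them at 6 h. CDKN1B fell with IHK-44 at 2 h, with a log2 change of -0.48 (SE 0.13, adjusted p = 0.0382), and rose at 6 h by 0.34 (SE 0.13, adjusted p = 0.0378).

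Both CDKN1B calls were close to the threshold. The one at 2 h was lost without the DMSO, NT, 1000 nM or 100 nM library of that time (adjusted p from 0.118 to 0.262), with total coding counts as library sizes (adjusted p = 0.0764) and with limma on log2(CPM + 1) (adjusted p = 0.0748). The one at 6 h was lost in 7 of 20 fits that left out 1 library. These were the fits without DMSO, NT, or IHK-44 at 100 nM or 1000 nM at 6 h, and without IHK-44, dCBP or JQAD at 1000 nM at 2 h, with adjusted p from 0.0502 to 0.217. The call at 6 h was also lost with RLE size factors (adjusted p = 0.0549) and with DESeq2 (adjusted p = 0.0569), and on the TPM scale its value was 0.04 (adjusted p = 0.914). With dCBP at 6 h the fitted change was 0.05 (SE 0.13, adjusted p = 0.771), and the mean deposited CPM, before the fit's rescaling of libraries, was 116% of the control mean. Of the summed TPM of CDKN1A and CDKN1B, CDKN1A made up 42.7% to 49% in the 6 h controls, 26% to 31.3% with dCBP and 14.6% to 19.9% with IHK-44.

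**Figure D3:**
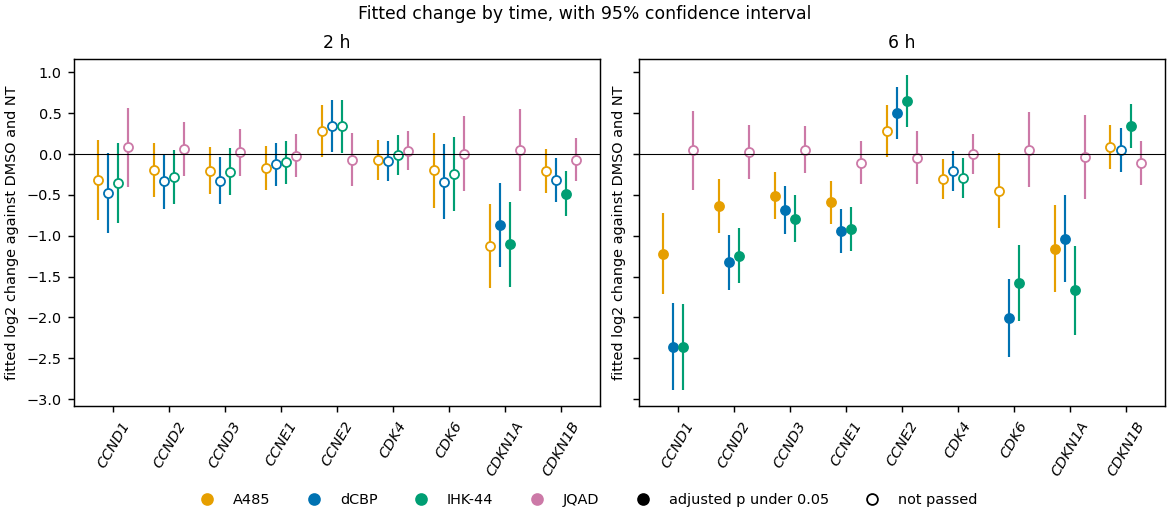
Fitted log2 change of the 9 genes against DMSO and NT at 2 h (left) and 6 h (right), with 95% confidence intervals; colours are compounds and filled points passed the adjusted threshold of 0.05. At 6 h CCND1 stood at -2.36 with both dCBP and IHK-44, while every JQAD point lay near 0.

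With A485 the fitted falls of the cyclins at 6 h were smaller than with dCBP or IHK-44, and the 2 doses lay apart; over both times, no gene of the 9 passed in a direct comparison of A485 with either compound. At 6 h CCND1 was 57.8 CPM at 100 nM and 25.4 at 1000 nM, CCND2 was 1522 and 1014, and CDK6 was 2515 and 1519. CCNE1 was 69.9 and 52.2 CPM and CCND3 107.8 and 87.0. For these 5 genes the 1000 nM library was the lower, and all 10 values lay below both controls. The genes that fell were CCND1, with a log2 change of -1.22 (SE 0.24, adjusted p = 0.00513), CCND2 with -0.64 (SE 0.16, adjusted p = 0.014), CCND3 with -0.51 (SE 0.14, adjusted p = 0.0209), CCNE1 with -0.59 (SE 0.13, adjusted p = 0.00779) and CDKN1A with -1.16 (SE 0.25, adjusted p = 0.00844). CDK6 at -0.45 (SE 0.22, adjusted p = 0.159), CDK4 at -0.31 (SE 0.12, adjusted p = 0.0764), CCNE2 at 0.29 (SE 0.15, adjusted p = 0.197) and CDKN1B at 0.09 (SE 0.13, adjusted p = 0.669) did not pass.

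The A485 calls rested on few libraries. Without the 1000 nM library of 6 h only that of CCND1 was left, without DMSO at 6 h CCND1 and CDKN1A were left, and without NT at 6 h none was (adjusted p of CCND1 = 0.051, of CDKN1A = 0.082). Without the 1000 nM library the log2 change of CDKN1A was -0.75 (adjusted p = 0.139), that of CCND2 -0.34 (adjusted p = 0.205), that of CCND3 -0.32 (adjusted p = 0.297) and that of CCNE1 -0.35 (adjusted p = 0.137). On the TPM scale, which moved the median of all genes up by 0.35, CCND2, CCND3 and CCNE1 no longer passed, CCNE2 passed as higher (0.68, adjusted p = 0.049) and the CDK4 value turned to 0.12 (adjusted p = 0.459).

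Dose was tested within compound and time, over 13137 genes with 4 residual degrees of freedom. The fit gave a single dose difference per compound, averaged over 2 h and 6 h, so doses were not tested at each time. The level of CDKN1A was lower at 1000 nM than at 100 nM of A485, with a log2 difference of -0.86 (SE 0.17, adjusted p = 0.0428), and it was the only one of the 9 genes that passed, where 0.853% of all genes were lower. That call was lost without any of the 4 A485 libraries (adjusted p from 0.124 to 1) or any of the 4 JQAD libraries (adjusted p from 0.0665 to 0.0703). CCND1 differed by -0.76 between the A485 doses (SE 0.19, adjusted p = 0.107). None of the 9 genes passed between doses of dCBP, IHK-44 or JQAD, where 0%, 0.107% and 0% of all genes did in edgeR. None of the 9 had an unadjusted p under 0.05 there, where 150, 315 and 262 of all 13137 genes did. Dose differences of opposite sign at the 2 times offset each other in such an average. With dCBP, CDK6 was lower at 1000 nM at 2 h (1911 CPM against 2409) and higher at 6 h (832.2 against 618.3). Its fitted dose difference was 0.02. For CCND1 the 95% interval of the dose difference ran from -0.51 to 0.34 with dCBP and from -0.35 to 0.49 with IHK-44.

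The growth of the effect from 2 h to 6 h was tested as the difference between the changes at the 2 times. For CCND1 this difference was -1.88 on the log2 scale with dCBP (SE 0.34, adjusted p = 0.00619) and -2.01 with IHK-44 (SE 0.34, adjusted p = 0.00209). For CDK6 it was -1.67 (SE 0.31, adjusted p = 0.00673) and -1.34 (SE 0.31, adjusted p = 0.012). CCND2 (-0.99 and -0.97) and CCNE1 (-0.81 and -0.82) passed with both compounds, and CDKN1B with IHK-44 alone, at 0.83 (SE 0.18, adjusted p = 0.00884). That made 4 lower with dCBP, where 6.4% of all genes were lower, and 4 lower and 1 higher with IHK-44, where 7.76% were lower and 2.13% higher. CDKN1A did not pass, with a difference of -0.17 with dCBP (95% interval -0.91 to 0.56), -0.56 with IHK-44 (-1.30 to 0.18) and -0.04 with A485 (-0.77 to 0.70). None of the 9 passed with A485, where 0.00754% of all genes did, or with JQAD, where 0% did (edgeR). At an unadjusted p under 0.05, 2 of the 9 differed with A485 and 0 with JQAD, where 1273 and 222 of all genes did.

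Several of these differences were near the threshold. That of CCND2 was lost with dCBP without DMSO or NT at 2 h, NT at 6 h or dCBP 100 nM at 2 h (adjusted p from 0.0529 to 0.067), and with IHK-44 without NT at 2 h or 6 h, IHK-44 1000 nM at 6 h or IHK-44 100 nM at 2 h (adjusted p from 0.0578 to 0.0762). That of CCNE1 was lost with dCBP without NT at 2 h or 6 h or dCBP 100 nM at 2 h (adjusted p from 0.0518 to 0.0577), and with IHK-44 without NT at 2 h, IHK-44 1000 nM at 6 h or IHK-44 100 nM at 2 h (adjusted p from 0.0548 to 0.058). That of CDK6 with IHK-44 was lost without DMSO at 2 h, NT at 6 h, IHK-44 1000 nM at 6 h or IHK-44 100 nM at 2 h (adjusted p from 0.0515 to 0.0713). The differences of CCND1 with both compounds, CDK6 with dCBP and CDKN1B with IHK-44 passed in all 20 such fits. On log2(TPM + 1) the difference of CCND1 with IHK-44 was the only one of these 9 differences that still passed, and the other 8 were lost (limma, adjusted p from 0.0758 for CCND1 with dCBP to 0.313 for CCNE1 with IHK-44). There 0.113% of all genes were lower with dCBP and 0.694% with IHK-44.

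Over both times and doses, the 4 libraries of each compound were set against the 2 DMSO libraries. These 4 libraries, at 2 doses and 2 times, stood in for replicates. The spread behind the p-values therefore holds differences in response between doses and times. With dCBP 6 of the 9 genes were lower and none higher, where 11.8% of all genes were lower and 11.8% higher. With IHK-44 4 were lower and 1 was higher (9.21% and 7.74% of all genes), and with A485 CDKN1A alone was lower (0.158% of all genes). CDKN1A was the one gene lower with all 3, with a log2 change of -1.35 for IHK-44 (SE 0.22, adjusted p = 0.00147), -0.93 for dCBP (SE 0.22, adjusted p = 0.0104) and -1.13 for A485 (SE 0.22, adjusted p = 0.0477). These 3 comparisons share the DMSO libraries. The gene higher with IHK-44 was CCNE2, at 0.44 (edgeR, adjusted p = 0.0378). On log2(TPM + 1) it did not pass, at 0.08 (limma, adjusted p = 0.806). None of the 9 passed against DMSO with JQAD or NT, where 0% of all genes passed in edgeR with either. For CCND1 the 95% interval ran from -0.89 to 0.95 with JQAD and from -1.13 to 1.00 with NT. Changes within these intervals could not be told from none. At an unadjusted p under 0.05, 143 genes differed with JQAD and 104 with NT, none of them among the 9.

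These pooled counts depended on which libraries were in the fit. Shares over all genes are not given below for fits that left out 1 library. Whether other genes lost calls there as well is therefore not shown. With only a compound's own libraries, DMSO and NT fitted, the counts were 2 for dCBP, 1 for IHK-44 and 0 for A485, where 7.58%, 8.7% and 0% of all genes passed. The dCBP count of 6 became 0 without DMSO at 6 h, 3 without DMSO at 2 h, 2 without dCBP 1000 nM at 6 h and 3 without dCBP 100 nM at 6 h. The IHK-44 count of 5 became 1 without DMSO at 6 h, IHK-44 1000 nM at 6 h or IHK-44 100 nM at 6 h, and 3 without DMSO at 2 h. The CDKN1A call with IHK-44 passed in all 20 such fits. That with dCBP was lost without DMSO at 2 h (adjusted p = 0.051) or 6 h (adjusted p = 0.119), and that with A485 in 16 of the 20 (adjusted p from 0.0509 to 0.519).

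Pairs of compounds, 6 in all, were compared in the same fit over their 4 libraries, which had the same doses and times. The fit had a term for time but did not pair libraries by dose, and its spread is that described above. The p-values were adjusted over all genes and pairs together. CDKN1A was lower than with JQAD, with a log2 difference of -1.38 for IHK-44 (SE 0.19, adjusted p = 0.000545), -1.15 for A485 (SE 0.19, adjusted p = 0.00163) and -0.96 for dCBP (SE 0.19, adjusted p = 0.00516). CCND1 was lower than with JQAD as well, at -1.46 for dCBP (SE 0.37, adjusted p = 0.0207) and -1.38 for IHK-44 (SE 0.37, adjusted p = 0.0263). CCND2 and CCND3 were lower with both, and CDK6 with dCBP, at -1.15 (SE 0.32, adjusted p = 0.0291). CCNE2 was higher by 0.56 with IHK-44 (SE 0.11, adjusted p = 0.0055) and by 0.48 with dCBP (SE 0.11, adjusted p = 0.0124). Pairs of compounds were not tested on log2(TPM + 1). In all, against JQAD, 5 genes were lower and 1 higher with dCBP (12% and 12.7% of all genes), 4 lower and 1 higher with IHK-44 (11.5% and 11.3%), and 1 lower with A485 (2.69%).

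The CCND1 differences from JQAD were lost without either 6 h library of JQAD or either 6 h library of the other compound, with adjusted p from 0.0521 to 0.0627 for dCBP and from 0.0628 to 0.0856 for IHK-44. The same 4 omissions ended the CDK6 call with dCBP (adjusted p from 0.0726 to 0.0855). For IHK-44, CCND2 was lost without IHK-44 1000 nM (adjusted p = 0.0533) or JQAD 1000 nM (adjusted p = 0.0554) at 6 h, and CCND3 without the latter (adjusted p = 0.0523). The CDKN1A and CCNE2 differences passed in all 20 such fits.

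No gene of the 9 passed between A485, dCBP and IHK-44, where 4.68% of all genes passed between A485 and dCBP, 3.96% between A485 and IHK-44 and 0.777% between dCBP and IHK-44 (edgeR). Over all 13260 genes these pairs had 2840, 2302 and 883 at an unadjusted p under 0.05. Of the 9 genes they had 1, 0 and 1. The first was CDK6, higher with A485 than with dCBP by 0.77 on the log2 scale (95% interval 0.11 to 1.43, adjusted p = 0.123). The other was CDKN1A, higher with dCBP than with IHK-44 by 0.42 (95% interval 0.02 to 0.82, adjusted p = 0.166). For CCND1 the interval ran from -0.85 to 0.69 between dCBP and IHK-44 and from -0.21 to 1.34 between A485 and dCBP, so sizeable differences in either comparison could not be told from none.

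Other genes of the G1 machinery were read from 4 lists with the same fit at 6 h, where 22.4% of all genes fell and 23.2% rose with dCBP and 21.4% fell and 20.7% rose with IHK-44. Of the 4 INK4 inhibitors, which bind CDK4 and CDK6 directly, 2 rose with both dCBP and IHK-44 and none fell. CDKN2D rose by 1.62 on the log2 scale with dCBP (SE 0.33, adjusted p = 0.000928) and by 1.27 with IHK-44 (SE 0.33, adjusted p = 0.00584), and CDKN2C by 0.59 and 0.51. CDKN2D RNA was scarce, at 2.12 CPM in DMSO and 2.51 in NT at 6 h, and at 1.38 and 2.56 at 2 h. CDKN2C stood at 70 and 75 CPM in DMSO and NT at 6 h. The median change of the 4 INK4 inhibitors was 0.54 with dCBP and 0.53 with IHK-44, beside 0.07 and 0.06 over all genes. Of the 13 RB and E2F family genes, 5 fell and 1 rose with dCBP and 4 fell and 2 rose with IHK-44. Their medians were -0.18 and 0.01. E2F5, a repressor-type E2F, fell with log2 changes of -1.40 and -0.64, and E2F2, an activator, with -0.71 and -1.14, while E2F1 rose by 0.62 and 0.35. E2F5 RNA was low as well, at 6.35 CPM in DMSO and 8.35 in NT at 6 h.

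The shares over all genes for the next 2 lists are those just given, 22.4% and 21.4% lower and 23.2% and 20.7% higher. Among the 6 genes of CDK2 and CDK activation, 1 fell and 2 rose with dCBP and 1 fell and 3 rose with IHK-44, with medians of 0.01 and 0.25. CDK2, the partner of E-type cyclins, rose by 0.47 and 0.45 on the log2 scale, the phosphatase gene CDC25A by 0.40 and 0.30, and MNAT1, of the CDK-activating kinase, fell, at -0.87 and -0.53. Of 6 genes for turnover of cyclins and inhibitors, 3 fell and 1 rose with dCBP and 2 fell with IHK-44, with medians of -0.24 and -0.15. SKP2, the F-box protein that marks p27 for degradation, fell, at -1.43 (SE 0.17, adjusted p = 1.04e-05) and -1.23 (SE 0.16, adjusted p = 2.78e-05), and its cofactor gene CKS1B at -0.40 and -0.29. AMBRA1, which directs D-type cyclins to degradation, rose by 0.40 with dCBP, and its value with IHK-44 was 0.19 (adjusted p = 0.15).

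With A485 at 6 h, 1 gene of the RB and E2F list and 1 of the turnover list fell and no gene of the other 2 lists passed, where 8.7% of all genes fell and 7.87% rose. With JQAD none of the 4 lists held a gene that passed, where 0% of all genes did (edgeR).

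**Figure D4:**
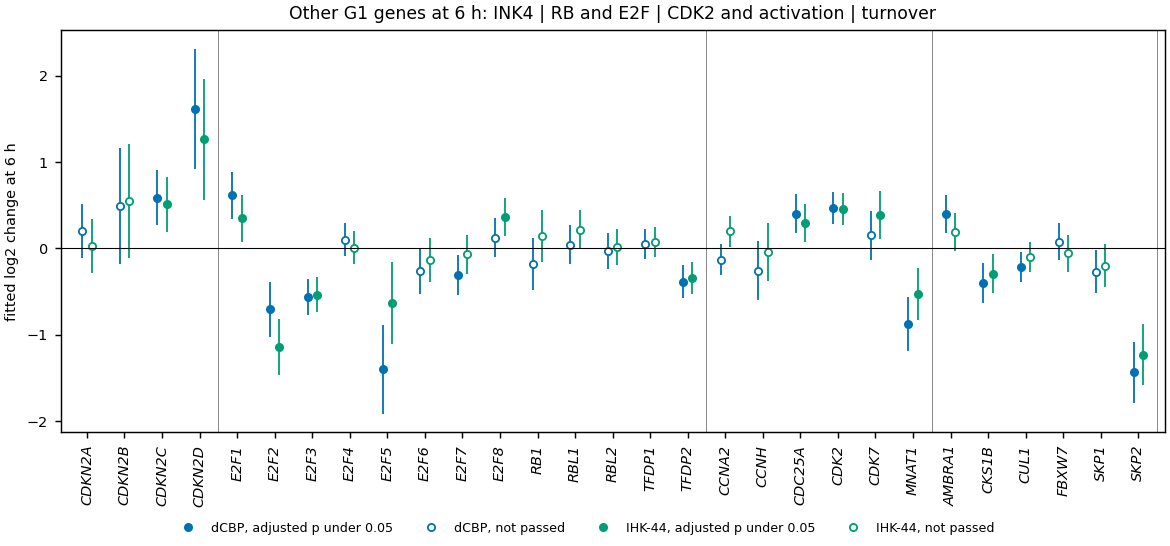
Fitted log2 change at 6 h against DMSO and NT of the other G1 genes by list, for dCBP and IHK-44, with 95% confidence intervals; filled points passed the adjusted threshold of 0.05. CDKN2D, a scarce RNA at 2.12 and 2.51 CPM in DMSO and NT at 6 h, stands highest at 1.62 and 1.27. SKP2 stands lowest for both at -1.43 and -1.23.

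Across the 20 libraries, each taken as log2(CPM + 1) minus the mean of DMSO and NT of its time, CCND1 and CCND2 moved most alike (Pearson r = 0.98), and CCND1 also moved with CCNE1 (0.97) and CDK6 (0.93). CCNE2 ran against CCND3 (-0.89) and CDKN1A (-0.85), and CDK4 followed CDK6 weakly (0.23). These are descriptions over libraries that share controls and fall into groups by compound and time. Among the 12174 genes whose mean over all libraries was at least 1 CPM, those most like CCND1 were SHISA9 and RIPOR2 (both 0.993) and PID1 (0.992). For CCND2 they were ALDH1B1 (0.996), DTX4 and IL4R (both 0.994), and for CDK6 HMGA2 (0.993), ENAH and SEMA3D (both 0.992). CDKN1A had less close partners, BAMBI (0.959), ZNF556 (0.958) and THEMIS2 (0.953). CCNE2 was most like SPDL1 (0.975), FAM111B (0.972) and ARMC1 (0.971), CCNE1 like PGM5 and BMPER (both 0.982) and NEK6 (0.98), and CCND3 like ANXA6 (0.969), FOXO6 and RGMA (both 0.966).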

How the data were processed

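The 20 RNA-seq libraries were used; the series' 11 samples of ChIP-seq and its 1 sample of ChRO-seq were not analysed here. The authors' deposited files give, per the file headers, expected counts, TPM and a normalized count for 18980 coding genes. The deposited normalized count was a CPM, the expected counts scaled to a fixed total over the coding rows. The deposited TPM was scaled over more than the coding rows. The submitters' processing notes list STAR 2.5.3a and RSEM 1.3.3 without roles, and hg38 among the builds. Expected counts (88.2% whole) were rounded and fitted with edgeR 4.0.16 (R 4.3.3; TMM, filterByExpr, quasi-likelihood test, Benjamini-Hochberg adjustment over all genes, threshold 0.05). Library totals were 13466631 to 16799327. The fit by compound had 6 treatments plus time (13 residual degrees of freedom), the fit by time 10 groups (10), the dose fit compound-time blocks (4). DESeq2 1.42.0 and limma 3.58.1 on log2(CPM + 1) and log2(TPM + 1), other scalings, filters, controls and omission of each library were alternatives. Scripts were tested on simulated data. Genes named were the 10 members, up to 3 called genes per list by size of change at 6 h, and the 3 genes most alike each member called over all libraries. Members and lists were chosen with earlier results of these data known. Per-library CPM is given without a test. A further list of genes is not reported here.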

Additional observations from a re-analysis of the deposited data

Results flagged for a closer look

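The change against DMSO and NT differed between 6 h and 2 h by the test of that difference (edgeR, Benjamini-Hochberg adjusted) for 9 combinations of gene and compound, given as the log2 change at 6 h minus that at 2 h. With dCBP these were CCND1 (-1.88), CCND2 (-0.99), CCNE1 (-0.81) and CDK6 (-1.67). With IHK-44 they were CCND1 (-2.01), CCND2 (-0.97), CCNE1 (-0.82), CDK6 (-1.34) and CDKN1B (0.83). CDKN1B was the one gene among them whose value was below 0 at 2 h and above 0 at 6 h.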

How the results depend on the processing

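The number of the 9 genes called was recomputed under each alternative. With only a compound's libraries, DMSO and NT in the fit, the counts against DMSO were 0 for A485, 1 for IHK-44 and 2 for dCBP (0%, 8.7% and 7.58% of all genes). The A485 dose count was 2 with DESeq2 (1.84% of all genes were lower) and 0 with limma on log2(CPM + 1) or with total coding counts (0.48% with each). On log2(TPM + 1), a scale added after seeing the data, the time-dependence count was 1 for IHK-44 and 0 for dCBP, where 0.747% and 0.128% of all genes passed, and the counts at one time were 3 for A485 at 6 h, 7 for IHK-44 at 2 h and 8 for dCBP at 2 h, where 27.7%, 23.3% and 23.3% of all genes did. For A485 against JQAD the count was 2 with DESeq2 (6.72% of all genes) and 3 with limma on log2(CPM + 1) or total coding counts (10.4% and 10.3%). For A485 at 2 h it was 1 with DESeq2 or no filter (0.952% and 1.13%). For IHK-44 at 2 h it was 1 with limma on log2(CPM + 1) or total coding counts (5.44% and 5.42%). Leaving out 1 library gave these ranges, for which shares over all genes are not given. Against DMSO they were 0 to 1 for A485, 1 to 6 for IHK-44 and 0 to 7 for dCBP. At 2 h they were 0 to 1 for A485, 0 to 3 for IHK-44 and 0 to 3 for dCBP, and at 6 h 0 to 6, 7 to 9 and 6 to 8. Against JQAD they were 1 to 3 for A485, 2 to 6 for IHK-44 and 4 to 7 for dCBP, and 0 to 1 between A485 and dCBP. The A485 dose count ranged from 0 to 1. Time dependence ranged from 0 to 3 for A485, 2 to 6 for IHK-44 and 2 to 4 for dCBP. The cause of these changes in counts was not tested. Fewer libraries leave fewer degrees of freedom, and the part of this in the counts was not tested either. Of single-gene calls, 34 of 351 values under other settings and 135 of 1136 with a library left out no longer passed, and none reversed. No pairing by replicate was possible, because each condition had 1 library. Doses were compared within matched compound and time, as an average over 2 h and 6 h. Genes at the level of CDKN1C were below what this depth can compare.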
